A study of Homo sapiens with 10 samples.

Results

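The genes described here encode Polycomb repressive complex 2 (PRC2), its accessory proteins and its inhibitor. They were chosen by symbol as EZH1, EZH2, EED, SUZ12, JARID2, AEBP2, MTF2, PHF1, PHF19 and EZHIP, which are 10 of the 58884 genes in each count table. Their RNA was compared between HCT116, a human colorectal carcinoma cell line labelled wild type, and DNMT1 KO, a derivative of HCT116 with a knocked-out DNMT1, the enzyme that copies CpG methylation onto newly replicated DNA. According to the study's text, DNMT1 KO cells still make a shortened DNMT1, because complete loss is lethal, so they model reduced and not absent maintenance methylation. Both lines were gifts from the same laboratory and were grown in the same medium, and no other agent or allele is given. There were 6 HCT116 libraries (replicates 1, 2, 3, 7, 8 and 9) and 4 DNMT1 KO libraries (replicates 1 to 4). The labels give each library a batch. Batch 1 holds replicate 1 of both lines, batch 2 holds replicates 2 and 3 of both, batch 3 holds DNMT1 KO replicate 4 and batch 4 holds HCT116 replicates 7 to 9. Nothing in the labels says that replicates were separate clones, so p-values measure the spread between these libraries of 1 derivative line.

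PRC2 places methyl groups on lysine 27 of histone H3, and its trimethylated product, H3K27me3, marks silent developmental genes. EZH2 or its paralogue EZH1 carries the catalytic SET domain, EED binds the mark and stimulates the enzyme, and SUZ12 is the scaffold on which the accessory proteins assemble. One form of the complex contains a Polycomb-like protein (PHF1, MTF2 or PHF19), which binds unmethylated CpG-rich DNA, and another contains JARID2 and AEBP2. EZHIP, normally a germ line protein, inhibits the catalytic subunit. DNA methylation and H3K27me3 largely exclude each other at CpG islands, which is why PRC2 is of interest in cells with less DNA methylation.

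The 250 bases before the RefSeq start are shown for both catalytic subunits and for the inhibitor. EZH1 is the only member that passed the test, EZH2 is its paralogue and EZHIP had counts close to 0. The windows are on GRCh38.p14, given 5′ to 3′ on the gene's own strand, with each CpG, the dinucleotide that DNMT1 methylates, in capitals.
EZH1, chr17:42745041-42745290, minus strand: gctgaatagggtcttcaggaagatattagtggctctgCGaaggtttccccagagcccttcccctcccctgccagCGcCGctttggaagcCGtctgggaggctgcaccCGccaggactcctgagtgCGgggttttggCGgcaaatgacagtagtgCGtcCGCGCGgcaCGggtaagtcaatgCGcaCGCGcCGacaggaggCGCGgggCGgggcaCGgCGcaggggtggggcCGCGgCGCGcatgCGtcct
EZH2, chr7:148884292-148884541, minus strand: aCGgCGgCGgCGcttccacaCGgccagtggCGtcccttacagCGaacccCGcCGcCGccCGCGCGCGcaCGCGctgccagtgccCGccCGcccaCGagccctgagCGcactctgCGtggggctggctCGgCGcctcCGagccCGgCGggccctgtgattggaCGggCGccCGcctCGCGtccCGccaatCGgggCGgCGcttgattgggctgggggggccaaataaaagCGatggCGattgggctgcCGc
EZHIP, chrX:51406698-51406947, plus strand: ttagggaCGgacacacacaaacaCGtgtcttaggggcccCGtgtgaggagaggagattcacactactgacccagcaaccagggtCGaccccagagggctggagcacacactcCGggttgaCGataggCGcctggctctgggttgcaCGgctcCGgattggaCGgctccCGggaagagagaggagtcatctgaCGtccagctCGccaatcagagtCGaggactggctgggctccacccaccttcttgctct

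The EZH2 window held 38 CpG and the EZH1 window 26, against a median of 11 in 34943 RefSeq promoters. As many CpG as EZH2 were found in 3.29% of those promoters, and as many as EZH1 in 19.6%. The EZHIP window held 14, a number reached by 44.7% of promoters. Methylation of these windows was not measured in the files used here. A search for 4 forms of the E2F motif (TTTGGCGC, TTTCGCGC, TTTCCCGC and TTTGCCGC, both strands) found a match in the 250 bases of 4 of the 10 members, EZH1, SUZ12, PHF19 and AEBP2, and in 2.77% of all promoters. With the 50 bases after the start included, a window chosen after the first search had been seen, EZH2 and MTF2 also held a match, giving 6 of 10 members and 3.30% of all promoters. Each of the 4 motifs contains a CpG, so CpG-rich windows hold them more readily. Among members with a match, the RefSeq start used lies just inside the gene span printed below for EZH1, EZH2 and MTF2. It lies far inside that span for AEBP2 and PHF19. Their windows were chr12:19440349-19440598 and chr9:120877189-120877438. A match is a description of the letters and not a bound site.

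HCT116 libraries held 35418732 to 85991812 counts and DNMT1 KO libraries 26700853 to 55732013. DNMT1 itself had 153 CPM (counts scaled to a common total with TMM factors) in HCT116 and 19.5 CPM in DNMT1 KO (log2 fold change -2.97, adjusted p = 1.74e-05, edgeR). Of 9 colon epithelial markers, 7 were tested, 4 were lower in DNMT1 KO (EPCAM, KRT8, KRT18 and CDH1) and 1 was higher (VIL1), and KRT20 was at 0 in every library. Their summed level was 2520 to 6130 CPM in HCT116 and 645 to 1431 CPM in DNMT1 KO. Of 12 fibroblast, leukocyte and endothelial markers, 6 were tested and 5 were higher in DNMT1 KO, at summed levels of 7.33 to 20.5 CPM in HCT116 and 20.8 to 25.7 CPM in DNMT1 KO. PTPRC, CD68 and PDGFRA, which define leukocytes, macrophages and fibroblasts, were at or near 0 in both lines. The part of these differences in the results below was not tested. In bulk RNA, fewer cells of a type and less RNA per cell cannot be told apart.

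Of the 10 members, 8 passed the filter on low counts, and PHF1 and EZHIP did not. Among the 8 tested, EZH1 fell in DNMT1 KO and none was called higher. A gene was called where its adjusted p was below 0.05 and it changed by more than 1 on the log2 scale in either direction, which held for 1 of the 8, against 13.9% of the 19279 genes tested. Called lower were 1 of 8 members and 6.49% of all genes, and called higher were 0 of 8 members and 7.42% of all genes. With no limit on size the count of members stayed at 1, against 16.1% of all genes. At an unadjusted p under 0.05 the count was also 1, against 27.6% of all genes. None of the 8 separated the libraries of both lines completely, which 15.2% of all genes did. The median log2 fold change was -0.08 over the 8 members and -0.07 over all genes tested.

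**Figure D1:**
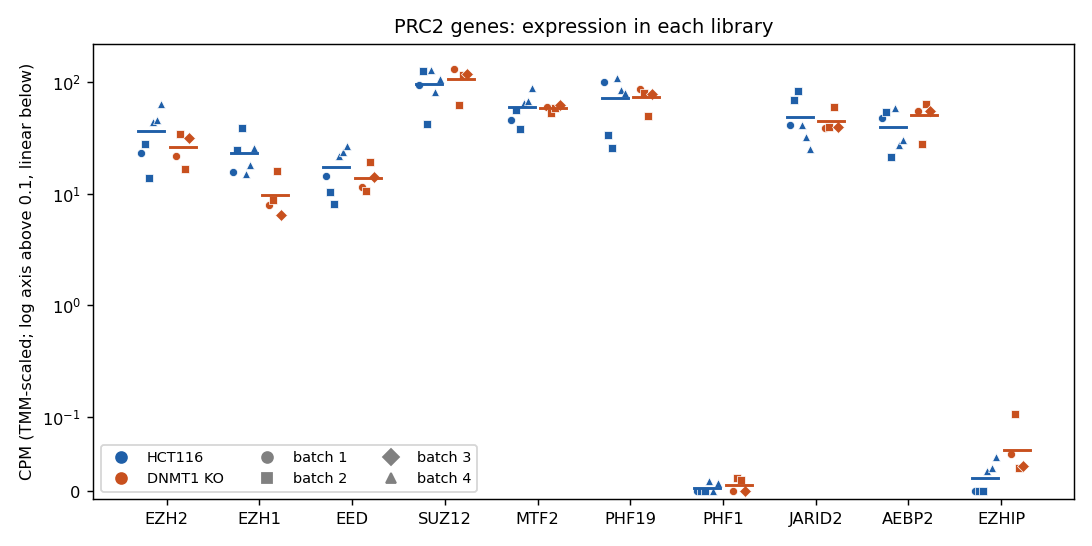
Expression of the 10 PRC2 genes in each library, in CPM on TMM-scaled totals (log axis above 0.1 CPM, linear below). Each point is 1 library, shape gives the batch and bars are group means. EZH1 lies lower in DNMT1 KO with 1 overlapping library, and PHF1 and EZHIP lie near 0 in both lines.

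EZH1 and EZH2 are the alternative catalytic subunits, EZH2 typical of dividing cells and EZH1 of resting ones. EZH1 (ENSG00000108799, chr17:42700275-42745049, minus strand) was measured in DNMT1 KO at 7.88 CPM in replicate 1, 8.76 in replicate 2, 16.1 in replicate 3 and 6.46 in replicate 4. In HCT116 it ranged from 15.0 to 38.6 CPM with a median of 21.5. DNMT1 KO replicate 3 lay above HCT116 replicates 1 (15.5 CPM) and 7 (15.0 CPM), and the other 3 DNMT1 KO libraries lay below every HCT116 library. The means were 9.80 ± 4.31 CPM (SD, n = 4) and 23.0 ± 8.93 CPM (SD, n = 6). The log2 fold change was -1.23 with a standard error of 0.34 (95% interval -1.96 to -0.50, edgeR adjusted p = 0.0228). By a two-sided exact permutation of log2 CPM between libraries, p was 0.0190.

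Batch 1 alone gave a difference of -0.94 in log2 CPM for EZH1, with 1 library a side and no test. Batch 2 alone gave -1.35 (edgeR adjusted p = 0.117), and batches 1 and 2 with batch as a term gave -1.23 (edgeR adjusted p = 0.0363). In that fit EZH1 was again the 1 member called, against 6.98% of genes called lower, 7.37% higher and 14.3% in all. The value was negative under each of 22 alternatives, from -1.56 to -0.99, with an edgeR or DESeq2 adjusted p between 0.00419 and 0.117. The call was lost on leaving out DNMT1 KO replicate 1 (edgeR adjusted p = 0.0842), replicate 2 (0.0729) or replicate 4 (0.0800), on scaling by library totals alone (0.0675), and in batches 1 and 2 without a batch term (0.0865). Without HCT116 replicate 3 the log2 fold change was -0.99, short of the limit on size.

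EZH2 (ENSG00000106462, chr7:148807383-148884321, minus strand) was measured in DNMT1 KO at 21.7, 34.5, 16.6 and 31.6 CPM in replicates 1 to 4. In HCT116 it ranged from 14.0 to 64.2 CPM with a median of 35.9. The DNMT1 KO values lay inside the HCT116 range, and the 3 HCT116 libraries above all of them were those of batch 4. The log2 fold change was -0.49 with a standard error of 0.37 (95% interval -1.28 to 0.31, edgeR adjusted p = 0.444), with p = 0.419 by exact permutation. Within batches 1 and 2 with batch as a term the sign was the opposite, at 0.15 (edgeR adjusted p = 0.845). A rise or fall of EZH2 by up to the bounds of the interval was thus not resolved.

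The ratio of EZH1 to EZH2, both as CPM per kilobase of exon, was 0.235, 0.165, 0.627 and 0.132 in DNMT1 KO replicates 1 to 4. In HCT116 it ranged from 0.223 to 1.79 with a median of 0.347. The highest ratio in each line was in replicate 3, and the groups overlapped. HCT116 replicate 3 was the single library in which EZH1 exceeded EZH2 per kilobase.

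The scaffold subunits did not pass the test. EED (ENSG00000074266, chr11:86244753-86278813, plus strand) was at 11.5, 10.6, 19.2 and 14.1 CPM in DNMT1 KO replicates 1 to 4. It ranged from 8.08 to 26.7 CPM in HCT116 with a median of 18.1. The 3 highest HCT116 values were again those of batch 4, and the DNMT1 KO values lay inside the HCT116 range. Its log2 fold change was -0.34 (95% interval -1.07 to 0.40, edgeR adjusted p = 0.582) and turned to 0.36 within batches 1 and 2 with batch as a term (edgeR adjusted p = 0.576).

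SUZ12 (ENSG00000178691, chr17:31937007-32001038, plus strand) was at 131, 62.2, 117 and 118 CPM in DNMT1 KO replicates 1 to 4. Its HCT116 values ran from 41.9 to 129 CPM with a median of 101. DNMT1 KO replicate 1 was just above the highest HCT116 library and replicate 2 well inside the range. The log2 fold change was 0.15 (95% interval -0.51 to 0.80, edgeR adjusted p = 0.807).

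**Figure D2:**
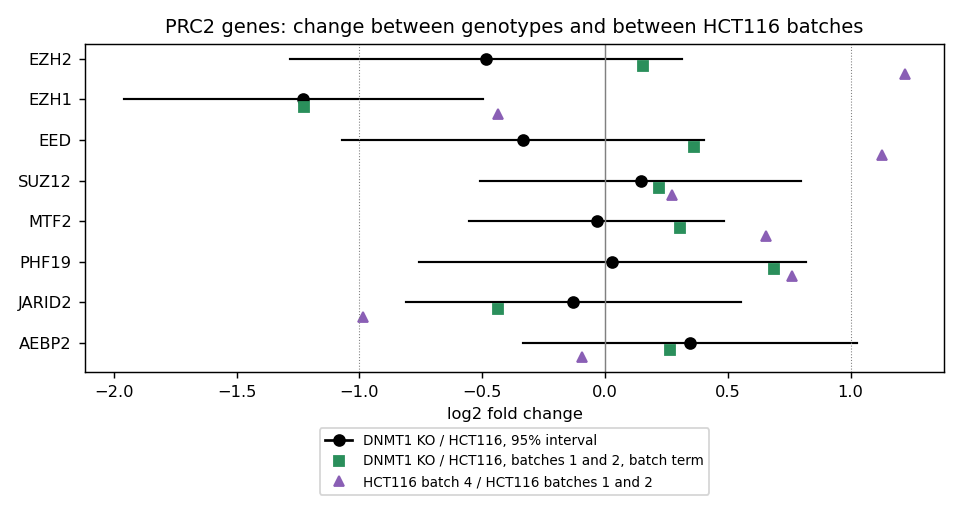
Log2 fold changes of the 8 tested PRC2 genes. Circles with bars give DNMT1 KO over HCT116 with its 95% interval, squares the same within batches 1 and 2 with batch as a term, and triangles HCT116 batch 4 over HCT116 batches 1 and 2. The interval of EZH1 alone excludes 0, and EZH2 and EED have their triangles beyond 1.

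The Polycomb-like proteins MTF2 and PHF19 recruit PRC2 to CpG islands. MTF2 (ENSG00000143033, chr1:93079235-93139079, plus strand) was at 60.2, 52.8, 59.0 and 63.0 CPM in DNMT1 KO replicates 1 to 4. Its HCT116 values ran from 37.7 to 88.9 CPM with a median of 60.4, which spans the DNMT1 KO values. The log2 fold change was -0.03 (95% interval -0.55 to 0.49, edgeR adjusted p = 0.947).

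PHF19 (ENSG00000119403, chr9:120855651-120894896, minus strand) was at 87.2, 80.4, 50.1 and 79.0 CPM in DNMT1 KO replicates 1 to 4. In HCT116 it ran from 25.8 to 110 CPM with a median of 82.7. The lowest HCT116 values, 33.9 and 25.8 CPM, were those of replicates 2 and 3, both of batch 2. The log2 fold change was 0.03 (95% interval -0.76 to 0.82, edgeR adjusted p = 0.969), and 0.69 within batches 1 and 2 with batch as a term (edgeR adjusted p = 0.242).

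JARID2 and AEBP2 mark the other form of the complex, in which JARID2 binds nucleosomes and is itself methylated by PRC2. JARID2 (ENSG00000008083, chr6:15246069-15522042, plus strand) was at 39.2, 39.6, 60.0 and 40.1 CPM in DNMT1 KO replicates 1 to 4. In HCT116 it ran from 25.1 to 82.7 CPM with a median of 41.6, and its 2 highest libraries were replicates 2 and 3. The log2 fold change was -0.13 (95% interval -0.81 to 0.55, edgeR adjusted p = 0.835).

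AEBP2 (ENSG00000139154, chr12:19404045-19720801, plus strand) was at 55.5, 27.8, 64.2 and 55.5 CPM in DNMT1 KO replicates 1 to 4. In HCT116 it ran from 21.4 to 58.4 CPM with a median of 39.1. It had the largest positive log2 fold change of the 8, 0.35 (95% interval -0.33 to 1.02, edgeR adjusted p = 0.530). The ratio of MTF2 plus PHF19 to JARID2 plus AEBP2, per kilobase of exon, was 0.920 to 2.02 in DNMT1 KO and 0.627 to 3.20 in HCT116, so the DNMT1 KO range lay inside that of HCT116. PHF1, the other Polycomb-like gene, could not be included.

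Levels of different genes were compared as CPM per kilobase of exon. In HCT116 the order from high to low was SUZ12 (14.8), PHF19 (11.0), MTF2 (10.2), EZH2 (8.07), JARID2 (7.83), AEBP2 (5.91), EZH1 (3.29) and EED (2.57). In DNMT1 KO it was SUZ12 (16.3), PHF19 (11.2), MTF2 (9.94), AEBP2 (7.51), JARID2 (7.16), EZH2 (5.77), EED (2.04) and EZH1 (1.40). Ranges over libraries overlapped for every pair of neighbours in both orders, except EZH2 over EED in DNMT1 KO, where the lowest EZH2 value was 3.68 and the highest EED value 2.82. EZH1 was thus above EED on average in HCT116, in 3 of 6 libraries, which were those of batches 1 and 2. It was below EED in the HCT116 libraries of batch 4 and in all 4 DNMT1 KO libraries. The aligner used does not split reads across exon junctions, so levels per kilobase also depend on how a gene's exons are cut.

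EZHIP (ENSG00000187690, chrX:51406948-51408843, plus strand) had counts close to 0 in both lines. All 3 protein-coding genes within 250 kb of it had fewer than 10 counts over the 10 libraries together, and 2 had 0. Whether low expression or poor measurement of this region gave the low counts was not tested. It had 2, 6, 2 and 1 counts in DNMT1 KO replicates 1 to 4. It had 0 counts in HCT116 replicates 1, 2 and 3 and then 2, 2 and 4 counts in replicates 7, 8 and 9, which are the deepest HCT116 libraries. Summed over libraries these were 11 counts in DNMT1 KO and 8 in HCT116, a ratio of 2.47 after division by library totals with a 95% interval of 0.903 to 7.06 that includes 1. That interval covers counting error alone, and is too narrow if counts come in mate pairs. Of counts from 1 to 10, 64.4 to 70.0% were even in 9 of the 10 libraries. The exception was DNMT1 KO replicate 4, at 39.9%. If so, its counts may be in another unit than those summed with them. The two-sided exact permutation of log2 CPM between libraries gave p = 0.0429 for EZHIP, not adjusted for the 10 members so compared. All 4 DNMT1 KO libraries and 3 of 6 HCT116 libraries held a count. The exact permutation p ran from 0.0159 to 0.143 on leaving out 1 library, and was above 0.05 without any 1 of HCT116 replicates 1, 2 or 3 (0.0873 each), 7 or 8 (0.0556 each) or DNMT1 KO replicates 1 (0.0714) or 2 (0.143). At 6 counts or fewer in every library, whether EZHIP differs between the lines was not resolved.

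PHF1 (ENSG00000112511, chr6:33410399-33416453, plus strand), the third Polycomb-like gene, had 2 counts in each line and at most 1 in any library. These counts do not measure it. It lies in a stretch of chromosome 6, from 28431930 to 33457544, in which all 181 protein-coding genes had 65 counts or fewer over the 10 libraries together and 168 had 0. The stretch includes RPS18, a ribosomal protein gene, and TUBB, BAG6 and CSNK2B, each at 0, while BAK1 just beyond it had 7782 counts. PHF1 is therefore only listed near 0. RING1, a catalytic subunit of PRC1, is listed at 0 in the same stretch. On chromosome 17, from 35744511 to 38841455, 37 of 56 protein-coding genes were at 0, including the proteasome gene PSMB3, the PRC2 accessory gene EPOP and the PRC1 gene PCGF2, whereas the next gene, RPL23, had 187341 counts. The cause was not tested.

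**Figure D3:**
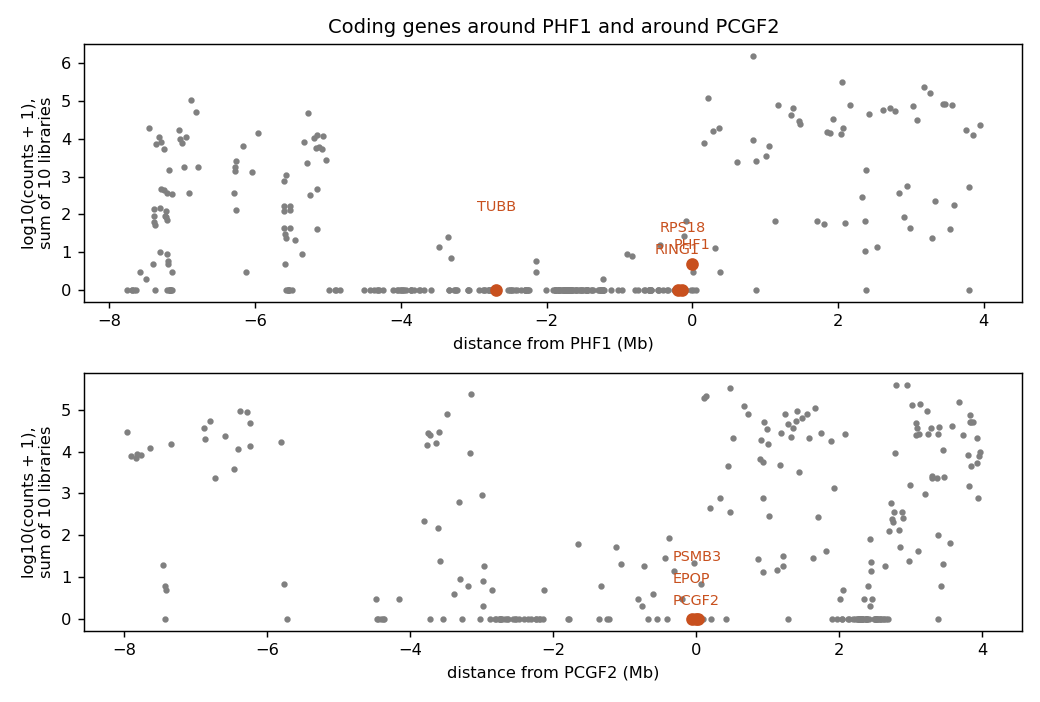
Counts of protein-coding genes around PHF1 (top) and PCGF2 (bottom), as log10(counts + 1) summed over the 10 libraries against distance in Mb. Each grey point is 1 gene and named genes are orange. PHF1 lies at 4 counts within a block where 168 of 181 genes are at 0, and PCGF2 within one where 37 of 56 are at 0.

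Members differed between batches of HCT116 itself. Batch 4 was compared with batches 1 and 2, 3 libraries each, by the same edgeR test. EZH2 was higher in batch 4 by a log2 fold change of 1.22 (standard error 0.34, adjusted p = 0.0390) and EED by 1.13 (standard error 0.33, adjusted p = 0.0456). These were 2 of 8 members, against 3.09% of 18656 genes called higher in this contrast, 4.94% called lower and 8.03% called in all. No member was called lower. JARID2 had a value of -0.99 (edgeR adjusted p = 0.0834), PHF19 0.76 (0.283), MTF2 0.66 (0.185) and EZH1 -0.44 (0.490). Because batch 4 holds HCT116 alone, batch and line cannot be told apart for these libraries, and the EZH2 and EED comparisons between lines rest on them.

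The proliferation genes, a list of 18 (MCM2 to MCM7, cyclins, MKI67 and others), moved between the same libraries. Their summed level in HCT116 was 3526 CPM in replicate 1, 1736 in replicate 2, 1025 in replicate 3, and 6371, 4878 and 5051 in replicates 7, 8 and 9. In DNMT1 KO it was 3134, 4304, 2103 and 3779 CPM in replicates 1 to 4. HCT116 replicate 3 was thus the lowest library for the list, and also for EZH2, EED, SUZ12, MTF2, PHF19 and AEBP2, and it was the highest for EZH1 and JARID2. Between HCT116 batches all 18 proliferation genes had a positive log2 fold change in batch 4 (median 1.34) and 2 were called, CCNA2 and CCNB1. Between the lines, over all 10 libraries, 0 of 18 passed an adjusted p under 0.05, with a median log2 fold change of -0.25. Limiting the fit to batches 1 and 2, and adjusting it for batch, turned this median positive, at 0.72. Again 0 of 18 passed, so a direction for the list between the lines was not resolved. The part of the proliferation level in the values of the PRC2 genes was not tested.

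**Figure D4:**
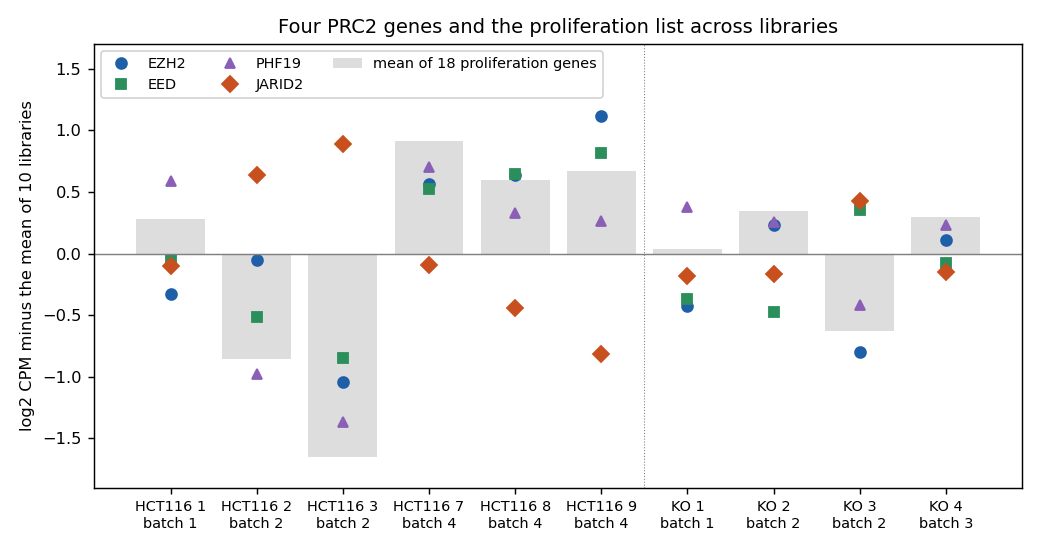
Log2 CPM minus the mean of the 10 libraries for EZH2, EED, PHF19 and JARID2 (points), with the mean of 18 proliferation genes as grey bars. The x axis gives line, replicate and batch. HCT116 replicates 2 and 3 are low for the list and for PHF19 and high for JARID2, and the 3 libraries of batch 4 are high for the list, EZH2 and EED.

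The 5 genes whose log2 CPM followed EZH2 most closely over the 10 libraries, among 14287 candidates with a mean of at least 1 CPM, were HNRNPDL (Pearson r = 0.965), BORA (0.964), MSANTD7 (0.956), RSRC2 (0.955) and CDC6 (0.949). BORA activates mitotic kinases and CDC6 licenses replication origins. These correlations describe libraries that share batches and are given with no p. All 5 had an edgeR adjusted p between 0.377 and 0.735 between the lines.

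Other Polycomb genes were counted from fixed lists. Over all genes tested, 7.42% were called higher and 6.49% lower. Of 6 further PRC2 partners, 5 were tested and 1, SKIDA1, was called higher. SKIDA1 was at 18.4, 18.8, 7.44 and 20.3 CPM in DNMT1 KO replicates 1 to 4 and between 0.321 and 2.58 CPM in HCT116, so the lines did not overlap. Its log2 fold change was 3.80 (edgeR adjusted p = 0.000124) and 5.06 within batches 1 and 2 with batch as a term (edgeR adjusted p = 0.000217). It also differed between HCT116 batches, by 2.03 in favour of batch 4 (edgeR adjusted p = 0.0325). The histone-binding subunits did not pass, with RBBP4 at 0.19 (edgeR adjusted p = 0.642) and RBBP7 at -0.34 (edgeR adjusted p = 0.563).

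Of 29 PRC1 genes, 26 were tested and 0 were called, with a median log2 fold change of -0.0043. No PRC1 gene had an adjusted p under 0.05 of any size either. With batch as a term in batches 1 and 2, SCML2 (1.10, edgeR adjusted p = 0.0345) and BCOR (1.01, edgeR adjusted p = 0.0247) were called higher. These were 2 of 26 PRC1 genes tested, against 7.37% of all genes called higher in that fit, a similar share. The H3K27 demethylase genes KDM6A (0.29, edgeR adjusted p = 0.602) and KDM6B (-0.26, edgeR adjusted p = 0.798) did not pass, nor did any of the 9 tested genes of 10 in the list for PR-DUB, the complex that removes ubiquitin from H2A.

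Of the 26 genes reported from a list of genes commonly described as PRC2 targets, 12 passed the filter on low counts. Called higher were 3 of the 12, against 7.42% of all genes tested, and called lower was 1, against 6.49%. The median log2 fold change was 0.35, against -0.07 over all genes tested. These counts leave out 1 further tested gene that was called lower and is not reported here. The count called lower was 2 without HCT116 replicate 9 and 3 with batch as a term over all libraries. PAX6, an eye and brain transcription factor, rose from 2.33 to 11.8 CPM (log2 fold change 2.34, edgeR adjusted p = 0.000137). SLIT2, an axon guidance ligand, rose by 2.08 (edgeR adjusted p = 0.00669), and had a log2 fold change of -1.75 in HCT116 batch 4 against the other HCT116 libraries. CCND2, a D-type cyclin, had 0 to 2 counts in each HCT116 library and 28, 50, 366 and 21 in DNMT1 KO replicates 1 to 4. DAB2IP, a Ras GTPase-activating protein, fell by 1.94 (edgeR adjusted p = 0.000133). CDKN2A, a classical target, had a value of 0.65 (edgeR adjusted p = 0.0810). Whether PRC2 occupies these genes in these cells is not in the count tables.

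**Figure D5:**
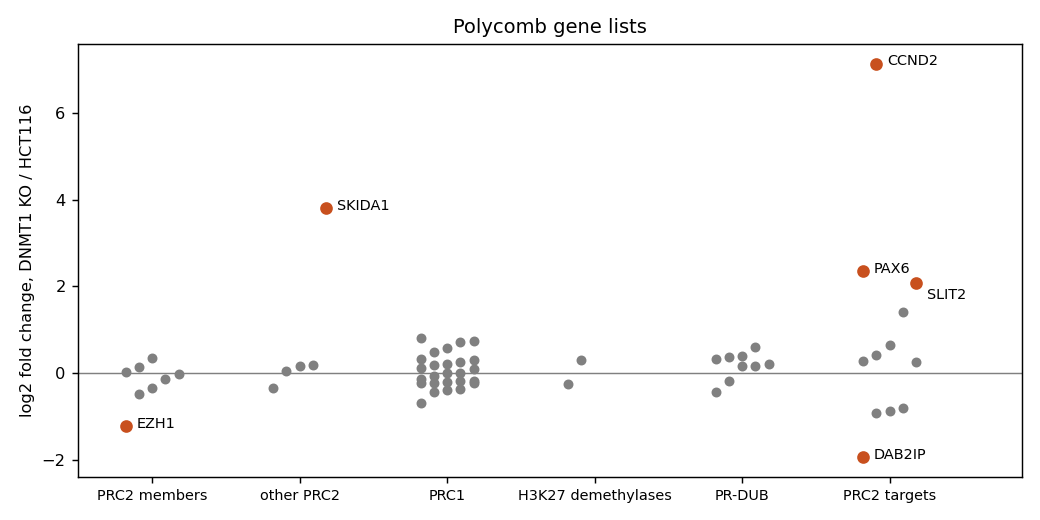
Log2 fold change, DNMT1 KO over HCT116, for tested genes of the PRC2 members and 5 fixed lists. Each point is 1 gene, and orange points with names were called by the rule above. EZH1 is the 1 called member, SKIDA1 the 1 called partner, and no PRC1 gene was called.

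For 3 members a pseudogene carrying the member's name was found, and reads may be shared with it. The copies were found by name alone, and neither likeness of sequence nor sharing of reads was measured. The pseudogenes EZH2P1, EEDP1 and SUZ12P1 had 2796, 769 and 2408 counts over the 10 libraries, against 18893, 9277 and 53395 for EZH2, EED and SUZ12. Adding them to their members, an alternative chosen after the data were seen, gave log2 fold changes of -0.51, -0.33 and 0.14. Exons of the 8 tested members overlapped no other gene, except 0.970% of EED with a microRNA gene.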

How the data were processed

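Poly(A) RNA of 6 HCT116 and 4 DNMT1 KO samples was sequenced. The authors checked reads with FastQC 0.11.4, trimmed them with Trim Galore 0.4.1, mapped them to hg38 with bowtie2, removed low mapping quality reads and counted exonic reads with featureCounts, no strand option being named. Each deposited table holds raw, unscaled counts. A further 3 tables have no sample in the list used and were not used. Tests used edgeR 4.0.16 under R 4.3.3 (TMM, filterByExpr, quasi-likelihood, group only, two-sided, Benjamini-Hochberg over 19279 genes), on code tested on simulated data. DESeq2 1.42.0, other scalings, filters, batches and left-out libraries were alternatives. CPM used TMM-scaled totals. Exact tests used log2(CPM + 0.5). Symbols and coordinates are Ensembl on GRCh38, and promoters RefSeq. Members and lists were chosen with earlier results of these data known. From the list of PRC2 targets, 1 gene is not reported here. It had been tested and called lower, and was taken out after the counts were computed, so the printed counts and median are those of the genes left. Named genes are all members, the 3 called genes with the smallest adjusted p per list, genes at adjusted p under 0.05, the 5 genes most correlated with EZH2, and DNMT1. Others named, such as CDKN2A, RBBP4, RBBP7, KDM6A, KDM6B and genes in the stretches at 0, were chosen after their values were seen. Counting intervals are 95%.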

Additional observations from a re-analysis of the deposited data

Results flagged for a closer look

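Of 22 groups of values examined, 2 held a library far from the others, and 1.1 would be so by chance. In DNMT1 KO replicate 3, JARID2 reached 60.0 CPM, while the other 3 libraries of that line lay between 39.2 and 40.1 CPM. EZH1 per EZH2, per kilobase of exon, was 1.79 in HCT116 replicate 3, against 0.223 to 0.567 in the other 5. This ratio was examined without a log, and its flag was not examined on the log2 scale. There it was 0.84 in HCT116 replicate 3, against -2.17 to -0.82 in the other 5. HCT116 replicate 3 also had the lowest summed level of the proliferation genes, 1025 CPM. The cause was not tested for either.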

How the results depend on the processing

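The 1 member called lower, EZH1, became 0 with library totals alone, in batches 1 and 2 without a term and in batch 2 alone, and 0 to 1 over the fits leaving out a library (0 without HCT116 replicate 3 or DNMT1 KO replicates 1, 2 or 4). Its log2 fold change without HCT116 replicate 3 was -0.99, just inside the limit. No tested member was called higher under any alternative. Batches 3 and 4 hold 1 line each, so with a batch term they carry no comparison of the lines. The fit with a batch term over the 10 libraries thus rests on batches 1 and 2 for that comparison and is not a separate check. EZH2 turned positive with a batch term (0.15 over the 10 libraries, 0.15 in batches 1 and 2), in batches 1 and 2 without a term (0.16) and in batch 2 alone (0.28). EED did so at 0.36, 0.36, 0.34 and 0.70 and MTF2 at 0.30, 0.30, 0.30 and 0.26, MTF2 also with library totals alone (0.17). JARID2 turned to 0.079 with library totals alone and PHF19 to -0.010 with no filter. Leaving out libraries gave -0.10 to 0.11 for MTF2, -0.10 to 0.22 for PHF19 and -0.29 to 0.12 for JARID2. None of these passed an adjusted p under 0.05, and the cause was not tested. Counts over all genes, 1431 higher and 1251 lower, fell to 734 and 766 when each library had to hold 10 counts and to 815 and 798 in batch 2 alone, where fewer genes or libraries enter.

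Replicate numbers 1 to 3 are shared by both lines, and deviations of same-numbered libraries had correlations of 0.55, -0.27 and 0.37. These deviations were taken from the mean of each line over all its batches, so they mix batch with any pairing. Whether the numbers pair the samples was not settled. With the replicate block 1 member was still called lower (EZH1, -1.25), and EZH2 was 0.15, EED 0.32 and MTF2 0.32, the last 3 with the opposite sign to the values over all libraries.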
